A study of Mus musculus with 4 samples.

Results

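The genes described here are 10 CC chemokines, Ccl2, Ccl3, Ccl4, Ccl5, Ccl6, Ccl7, Ccl9, Ccl17, Ccl22 and Ccl24, out of 23451 genes with a value on the arrays. They were found through the RefSeq transcript that each probe names, which gave 11 probes, each printed as 1 spot, with 2 probes for Ccl4 and 1 for every other gene. RNA came from wild-type (WT) dendritic cells, grown from femur marrow of male C57BL/6J mice over 6 days with 10 ng/ml GM-CSF, a growth factor that all groups shared. Such cultures are known to mix dendritic cells with macrophages and granulocytes, and the age and number of mice were not stated in the labels. The 4 groups were LPS with LA (100 ng/ml and 20 mM), LPS (100 ng/ml), LA (20 mM) and medium, with 4 h of treatment in the first 3 groups and no time given for medium. Each group was 1 single-colour array, and all 4 lay on 1 slide, so every difference below is between 2 arrays, with no spread between cultures and no test. LA is spelled L-(+)-LA in the treatment label, lactate being the word of the title, with no pH given.

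CC chemokines are small secreted proteins with adjacent cysteines near the amino terminus. They bind receptors with 7 membrane passes on leukocytes and draw these cells along a gradient. LPS, an outer membrane component of Gram-negative bacteria, is sensed by TLR4, and NF-kB and interferon-activated factors then switch on several chemokine genes. In dendritic cells the family is known for calling in monocytes, T cells and granulocytes at sites of infection, while some members are also made without stimulation.

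The deposited processed intensity is a linear, background-subtracted signal in arbitrary units. For comparisons it was divided by the 75th percentile of its array (146 for LPS with LA, 174 for LPS, 158 for LA and 179 for medium) and put on a log2 scale, here called the level. Measured in a comparison means here that the probe stood well above background on each of its arrays, and 1 log2 unit, or 2-fold, was the size from which a gene counted as higher or lower. Errors given as ± are the scanner software's own error of a single spot, carried over to the difference, and leave out labelling, culture and animal. That error was 0.14 to 0.16 log2 units per spot where a member was measured, apart from Ccl24 (0.20 to 0.29). Between spots of probes printed at least 10 times the median SD was 0.054, 0.053, 0.051 and 0.052 with LPS and LA, with LPS, with LA and in medium, values that bright probes dominate. Some members had a level under 0 while above background, namely Ccl2 in medium, Ccl7 and Ccl22 on the arrays with LA and Ccl24 on all. Among probes printed at least 10 times and above background at such levels, the median SD was 0.19, 0.14, 0.23 and 0.15 in the same order. The software's error can thus understate the spread of dim spots. Of the 10 chemokines, 10 were well above background with LPS and LA, 10 with LPS, 10 with LA and 9 in medium, where Ccl7 was not.

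The arrays themselves are described by marker lists. Of 12 dendritic cell markers 11 were above background on at least 1 array, and Xcr1, a receptor of cross-presenting dendritic cells, on none. The summed scaled signal of this list was 252, 348, 266 and 327 times the 75th percentile with LPS and LA, with LPS, with LA and in medium. Markers of neutrophils and their precursors (12 of 12 above background) summed to 909, 765, 879 and 675 in the same order, and those of mast cells, basophils and eosinophils (12 of 12) to 114, 88.7, 108 and 58.4. Macrophage and monocyte markers (12 of 12) summed to 128, 211, 137 and 163. Lymphocyte and NK markers stayed at 1.87 to 2.22, with Ms4a1 and Ncr1 above background on no array, and stromal and endothelial markers at 2.19 to 3.86, with Cdh5 on none. With LPS and LA against LPS, 2 of 11 measured dendritic cell markers were at least 2-fold higher and 5 lower, against 7 of 12 higher and 0 lower for neutrophils, 0 of 11 higher and 3 lower for macrophages and monocytes, and 0 of 11 either way for mast cells, basophils and eosinophils. Over all 13631 genes measured in this comparison 11.5% were higher and 12.5% lower. The part of these cells in the chemokine signals was not tested, and fewer cells of a type and less RNA per cell cannot be told apart in such bulk RNA.

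The 10 members are a chosen part of the family, and other CC chemokines are described further below. Among the 10, the LPS array was the high one for all but Ccl6. The array with both agents lay within 0.80 log2 units of LA alone. With LPS and LA against LPS, 9 of 10 members were at least 2-fold lower, 0 were higher and Ccl6 was neither, with a median log2 difference of -2.28. Among all 13631 genes measured on these arrays, 12.5% were lower and 11.5% higher, and their median was 0.00. With LPS against medium, 7 of 9 measured members reached 2-fold upward and 0 downward, with a median of 3.05, where 8.14% of 13592 genes were higher and 7.50% lower (median 0.00). With LA against medium, 1 of 9 was higher and 0 lower (median 0.10), against 3.12% higher and 3.33% lower of 14555 genes (median 0.02). Ccl7, which has only a bound against medium, was higher in each comparison with it.

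**Figure D1:**
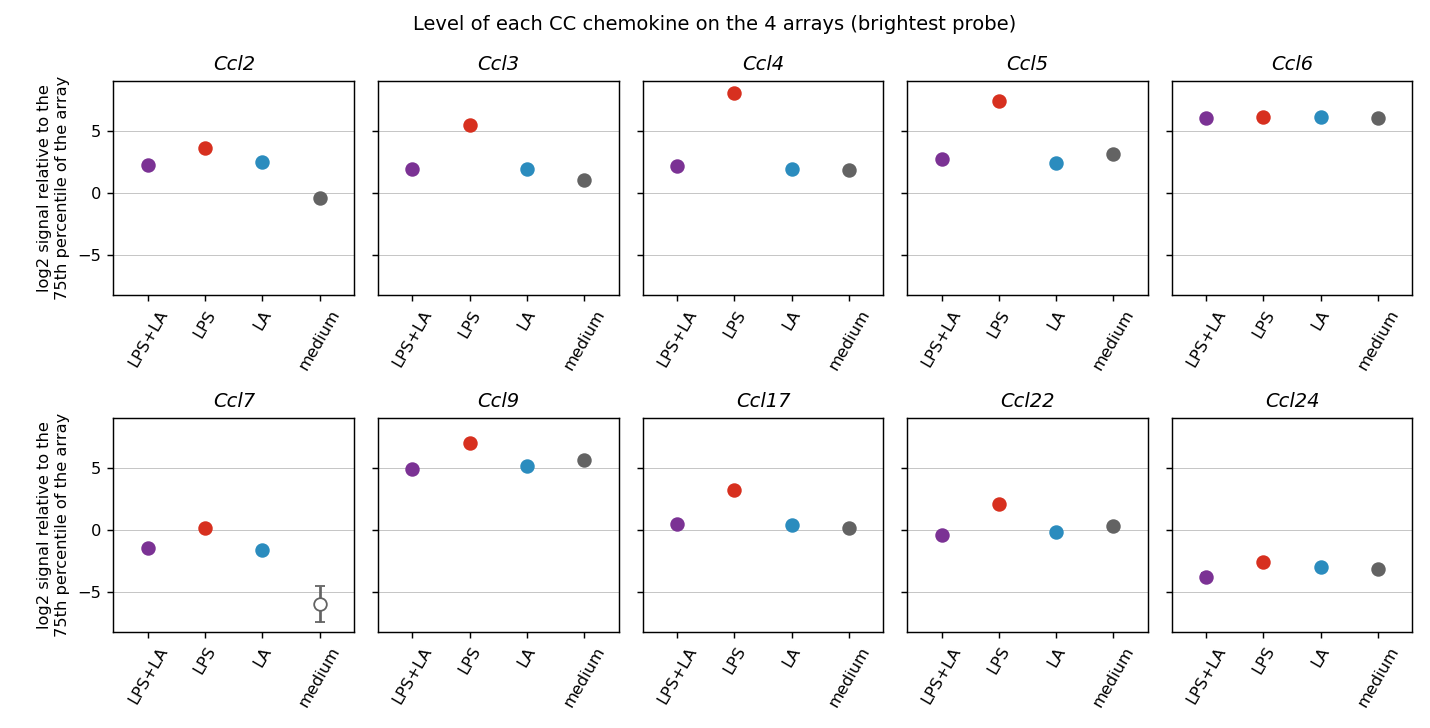
Level of each CC chemokine on the 4 arrays, as log2 of the signal over its array's 75th percentile, with 1 panel per gene and bars for the software's error of the spot (often smaller than the point). The open point for Ccl7 in medium was not well above background. The LPS array is the highest in 9 panels, while Ccl6 lies between 6.03 and 6.14 on all 4 arrays.

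Ccl3, Ccl4 and Ccl5 encode inflammatory chemokines that attract monocytes, macrophages and T cells. Ccl4 had a processed intensity of 658 with LPS and LA, 48170 with LPS, 596 with LA and 631 in medium on its brighter probe. The other probe gave 606 with LPS and LA, 55330 with LPS, 537 with LA and 616 in medium. LPS alone stood apart on both probes, and the other 3 arrays lay within 0.35 log2 units of each other on the brighter one. By the brighter probe Ccl4 was 78.4-fold higher with LPS than in medium (6.29 ± 0.20 log2 units), at rank 6 of 13592 genes, and by the other probe 92.3-fold. With LPS and LA it was 61.3-fold lower than with LPS by the brighter probe (-5.94 ± 0.20), at rank 15 from the bottom of 13631 genes, and 76.6-fold lower by the other. No spot on any array was saturated, so the LPS values are measured and not capped.

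Ccl5, also known as RANTES, attracts T cells and monocytes and is a late target of interferon and NF-kB signals. Its intensity was 996 with LPS and LA, 30251 with LPS, 843 with LA and 1559 in medium. The LPS array was highest, and medium came before LPS with LA and LA. Ccl5 was 25.5-fold lower with LPS and LA than with LPS (-4.67 ± 0.20) and 19.9-fold higher with LPS than in medium (4.32 ± 0.20). It also lay below medium on the arrays with LA, at -0.35 ± 0.20 with LPS and LA and at -0.71 ± 0.20 with LA, both under the 2-fold mark.

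Ccl3 recruits monocytes and granulocytes, in part through CCR1. It read 574 with LPS and LA, 8013 with LPS, 594 with LA and 373 in medium. Again LPS was far above the rest, but here both arrays with LA stood above medium. Ccl3 was 11.7-fold lower with LPS and LA than with LPS (-3.55 ± 0.20) and 22.1-fold higher with LPS than in medium (4.47 ± 0.20). It was 1.89-fold higher with LPS and LA than in medium (0.92 ± 0.20) and 1.80-fold higher with LA than in medium (0.85 ± 0.20), sizes beyond the spot error and short of 2-fold. In the authors' deposited values these were 1.1 and 1.0 log2 units, where the median of all genes lay at 0.19 and 0.17.

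Ccl2 and Ccl7 encode monocyte chemoattractants, which act through CCR2, the receptor that brings monocytes out of the marrow. Ccl2 had an intensity of 695 with LPS and LA, 2152 with LPS, 883 with LA and 135 in medium. Medium was the low array here, and all 3 treated arrays stood well above it. Ccl2 was 6.30-fold higher with LPS and LA than in medium (2.66 ± 0.21), 16.4-fold higher with LPS (4.03 ± 0.21) and 7.38-fold higher with LA (2.88 ± 0.21). Its LA difference from medium ranked 7 of 14555 genes and its difference for LPS with LA ranked 6 of 14520, a comparison in which 3.0% of genes were at least 2-fold higher and 3.98% lower. Against LPS, Ccl2 was 2.59-fold lower with LPS and LA (-1.38 ± 0.20), a smaller difference than those of Ccl3, Ccl4 and Ccl5. This difference was -0.92 with quantile normalization and -0.95 in the authors' deposited values, short of 2-fold, where the median of all genes was 0.08 and 0.43.

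Ccl7, the gene next to Ccl2 on chromosome 11, had an intensity of 52.1 with LPS and LA, 191 with LPS, 50.8 with LA and 2.83 in medium. The medium value was at background, and the arrays with LA were alike. Ccl7 was at least 5.67-fold higher with LPS and LA than in medium, at least 17.4-fold higher with LPS and at least 5.09-fold higher with LA. The bounds use the lowest signal well above background on the medium array. With LPS and LA it was 3.07-fold lower than with LPS (-1.62 ± 0.21). That difference was -1.01 with normexp background correction, whose offset of 50 is near the Ccl7 intensity with LA and pulls the difference toward 0.

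Ccl6 and Ccl9 are CC chemokines that rodents have and that act through CCR1. Ccl6 had an intensity of 9532 with LPS and LA, 12209 with LPS, 11146 with LA and 11761 in medium. Its levels spanned 0.108 log2 units over the 4 arrays, less than the spot error of 0.20 on a difference, so no order of the arrays can be read. The difference for LPS with LA against LPS was -0.10 ± 0.20, and it lay between -0.21 and 0.42 under the other ways of processing. Ccl9 read 4397 with LPS and LA, 22100 with LPS, 5471 with LA and 8842 in medium. Its signal was highest with LPS, followed by medium, with both LA arrays below. Ccl9 was 4.21-fold lower with LPS and LA than with LPS (-2.07 ± 0.20) and 2.57-fold higher with LPS than in medium (1.36 ± 0.20). Against medium it was lower by less than 2-fold with LPS and LA (-0.71 ± 0.20) and with LA (-0.52 ± 0.20).

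Ccl17 and Ccl22 share the receptor CCR4, found on Th2 and regulatory T cells, and are products that dendritic cells are known for. Ccl17 had an intensity of 200.3 with LPS and LA, 1627 with LPS, 203 with LA and 201 in medium. The 3 arrays other than LPS did not separate clearly, as their levels lay within 0.29 log2 units. Ccl17 was 6.81-fold lower with LPS and LA than with LPS (-2.77 ± 0.20) and 8.31-fold higher with LPS than in medium (3.05 ± 0.20). Ccl22 read 109 with LPS and LA, 731 with LPS, 137 with LA and 222 in medium. LPS was highest and medium next, as for Ccl5 and Ccl9. Ccl22 was 5.62-fold lower with LPS and LA than with LPS (-2.49 ± 0.21) and 3.39-fold higher with LPS than in medium (1.76 ± 0.20). Its differences from medium were -0.73 ± 0.21 with LPS and LA and -0.52 ± 0.21 with LA. Ccl5, Ccl9 and Ccl22 thus lay below medium by more than the spot error on both arrays with LA. For Ccl5 with LPS and LA the value was within the spot error with quantile normalization (-0.19) and in the authors' deposited values (-0.17). The median of all genes was 0.04 and 0.19 there, and relative to it Ccl5 lay at -0.23 and -0.36.

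Ccl24, or eotaxin-2, attracts eosinophils through CCR3. It had an intensity of 10.4 with LPS and LA, 27.9 with LPS, 19.7 with LA and 20.3 in medium, beside a local background of 23 to 25 that had been subtracted. The values are low on every array, and the array with both agents is the lowest. Ccl24 was 2.25-fold lower with LPS and LA than with LPS (-1.17 ± 0.36) and lay at 0.50 ± 0.32 with LPS against medium. The difference for LPS with LA against LPS was -0.13 with normexp background correction, short of 2-fold. That correction adds an offset of 50, more than the Ccl24 intensity on any array, which pulls the difference toward 0. The value therefore cannot decide whether Ccl24 is among the lower members. The same difference was -0.89 with a percentile over probes detected on every array, and in the authors' deposited values it was -0.75.

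**Figure D2:**
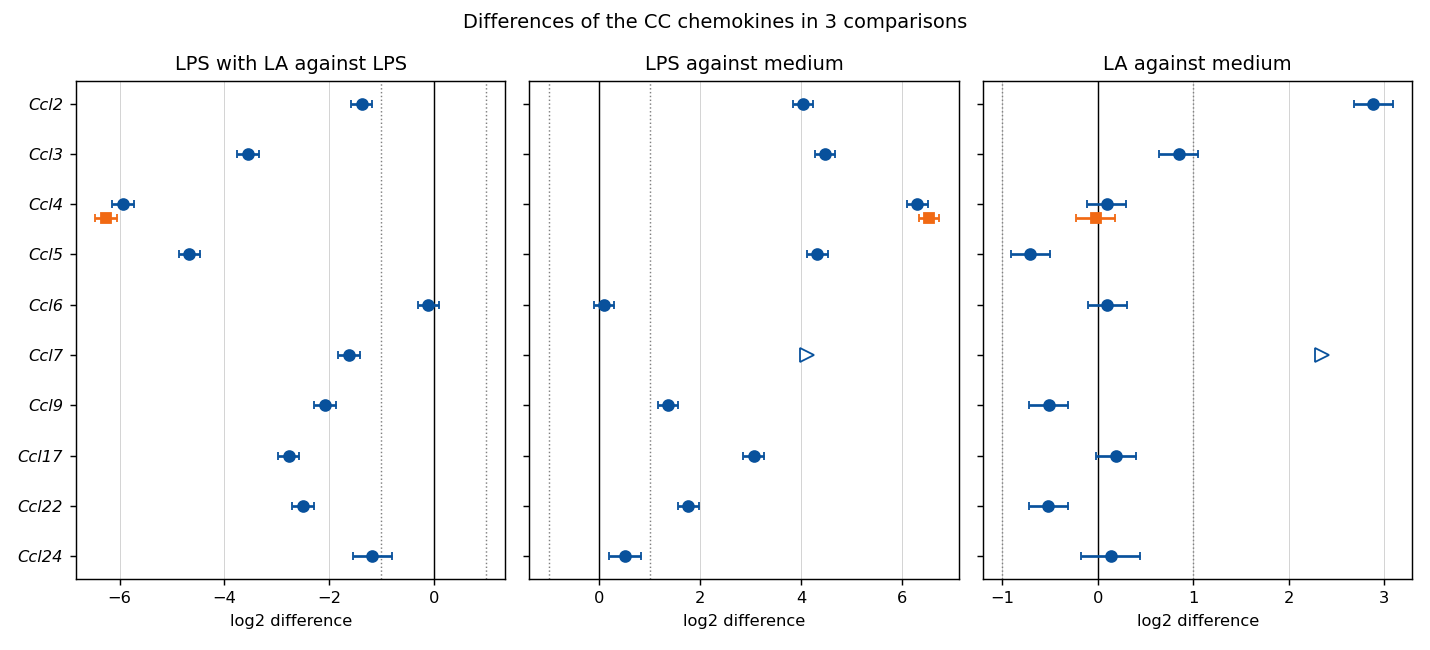
Log2 differences of the 10 chemokines in 3 comparisons, with bars for the software's spot error and dotted lines at 1 log2 unit either way. Round points are each gene's brightest probe, square points the other Ccl4 probe, and open triangles the lower bounds of Ccl7. On the left all points but that of Ccl6 lie below -1, and on the right Ccl2 (2.88) and the bound of Ccl7 stand apart from the rest.

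Setting LPS with LA against LA shows what LPS added in the presence of LA. Of 10 members 0 reached 2-fold in either direction, with a median of -0.02 and a range of -0.80 to 0.36. Few genes differed between these arrays at all, as 0.906% of 14905 genes were higher and 1.5% lower. Ccl5 (0.36 ± 0.20) and Ccl4 (0.26 ± 0.20) had the highest values and Ccl24 (-0.80 ± 0.35) the lowest. The level with LPS and LA, as a share of that with LPS, was 1.63% for Ccl4, 3.93% for Ccl5 and 8.55% for Ccl3. For the CCR4 ligands it was 14.7% (Ccl17) and 17.8% (Ccl22), for Ccl9 23.7%, for Ccl7 32.6%, for Ccl2 38.5% and for Ccl24 44.5%, and for Ccl6 it was 93.1%.

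**Figure D3:**
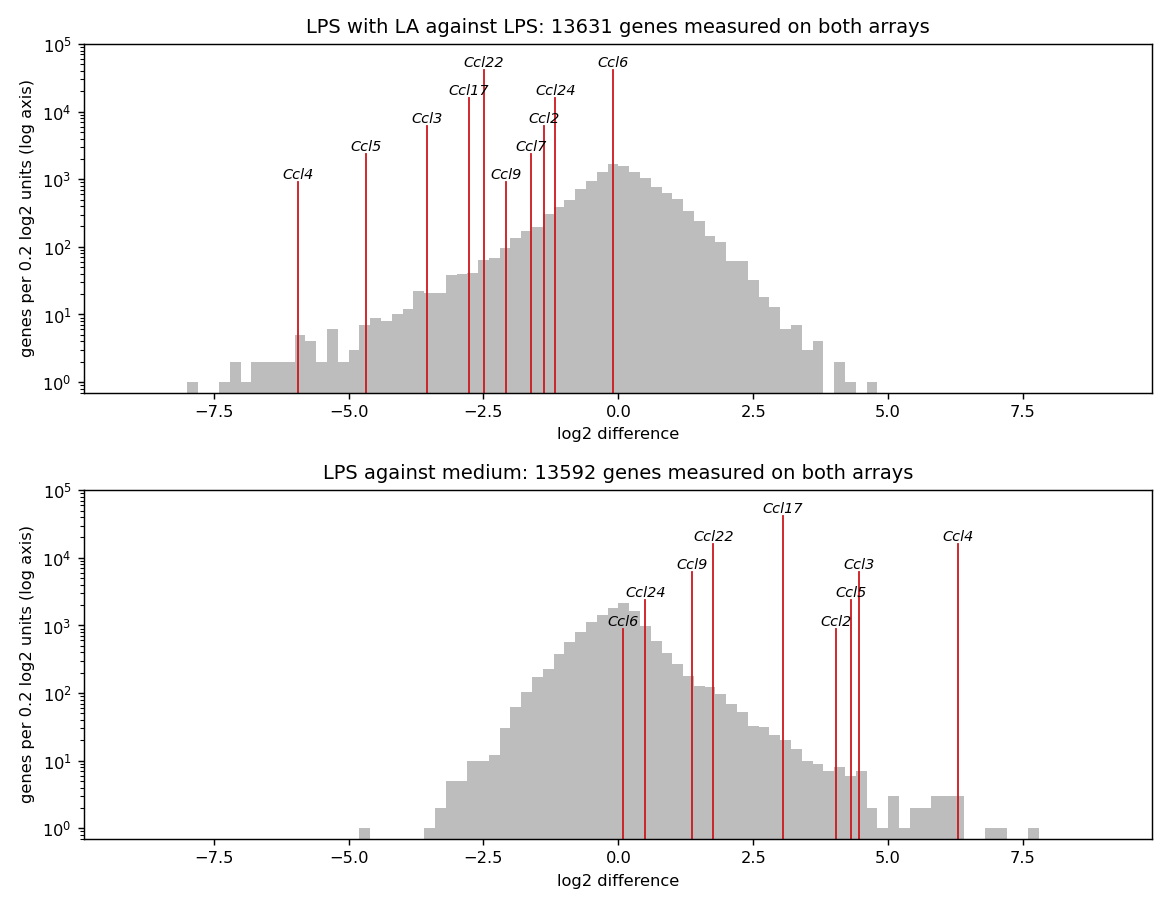
Distribution of the log2 difference over all measured genes (grey bars, log axis) with the chemokines as red lines, for LPS with LA against LPS above and LPS against medium below. Line heights only separate the names. Ccl4 lies near the end of both distributions, at -5.94 and 6.29, and Ccl6 near their middle.

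The LA difference was then compared between cells with and without LPS, as the log2 difference of LPS with LA against LPS minus that of LA against medium. The same number is LPS with LA against LA minus LPS against medium. Since the former had a median of -0.02, most values below largely repeat LPS against medium with the sign turned. They are not a separate result. Of the 9 members measured on all 4 arrays, 8 were lower by at least 1 log2 unit and 0 higher, with a median of -2.96. Over all 13368 such genes 9.70% were lower and 8.97% higher, with a median of -0.02. Ccl4 had -6.03 ± 0.29, rank 4 from the bottom, or -6.24 by its other probe. Ccl3 followed with -4.40 ± 0.29, Ccl2 with -4.26 ± 0.29 and Ccl5 with -3.96 ± 0.29. Smaller values were those of Ccl17 (-2.96 ± 0.29), Ccl22 (-1.97 ± 0.29), Ccl9 (-1.56 ± 0.29) and Ccl24 (-1.30 ± 0.48), and Ccl6 had -0.20 ± 0.29. The large value of Ccl2 was made up of a higher level with LA in the absence of LPS (2.88) and a lower level with LA in its presence (-1.38). That of Ccl4 came almost wholly from the comparison with LPS, since LA against medium was 0.09 ± 0.20.

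**Figure D4:**
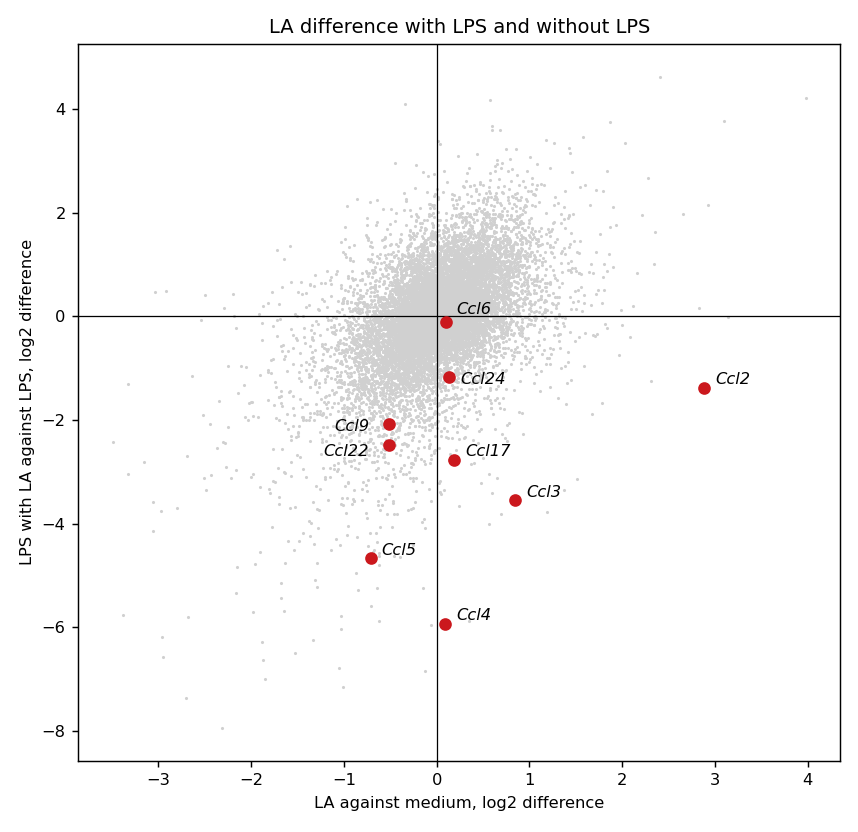
LA difference with LPS (vertical) against LA difference without LPS (horizontal), both in log2 units, for 13368 genes measured on all 4 arrays (grey) and 9 chemokines (red). Ccl2 lies to the right at 2.88, Ccl4 at the bottom at -5.94, and Ccl6 near the crossing of the axes.

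The members also share positions in the genome. In RefSeq (GRCm38.p6), 7 of the 10 genes lie on chromosome 11, 2 on chromosome 8 and 1 on chromosome 5. Ccl2 and Ccl7 are adjacent coding genes, as are Ccl5, Ccl9, Ccl6, Ccl3 and Ccl4 in this order. Ccl6 thus sits between Ccl9 and Ccl3, which were 4.21-fold and 11.7-fold lower with LPS and LA than with LPS, while its own level did not differ beyond the spot error. Ccl22 and Ccl17 have Cx3cl1, a membrane-bound chemokine gene, between them. RefSeq promoters, which run from 250 bases before to 50 bases after the start site, were given for 5 of the 10 members. Shown here are those of Ccl3, Ccl6 and Ccl9, neighbours with different responses, and of Ccl17, the CCR4 ligand with the larger LPS difference. They lie at chr11:83649329-83649628, chr11:83593038-83593337 and chr11:83578587-83578886 on the minus strand and at chr8:94810203-94810502 on the plus strand. Capitals mark matches to the motifs named in the next paragraph.
Ccl3: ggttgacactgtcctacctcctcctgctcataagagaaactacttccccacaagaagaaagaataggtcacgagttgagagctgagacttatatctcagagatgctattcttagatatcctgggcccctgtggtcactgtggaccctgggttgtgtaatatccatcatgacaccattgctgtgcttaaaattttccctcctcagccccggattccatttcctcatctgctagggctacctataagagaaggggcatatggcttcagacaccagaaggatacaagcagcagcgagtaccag
Ccl6: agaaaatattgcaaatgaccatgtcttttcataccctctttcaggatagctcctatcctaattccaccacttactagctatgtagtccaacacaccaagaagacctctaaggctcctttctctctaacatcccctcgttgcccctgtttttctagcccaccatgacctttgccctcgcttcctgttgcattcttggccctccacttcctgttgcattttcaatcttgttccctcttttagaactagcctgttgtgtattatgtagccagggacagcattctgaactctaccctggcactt
Ccl9: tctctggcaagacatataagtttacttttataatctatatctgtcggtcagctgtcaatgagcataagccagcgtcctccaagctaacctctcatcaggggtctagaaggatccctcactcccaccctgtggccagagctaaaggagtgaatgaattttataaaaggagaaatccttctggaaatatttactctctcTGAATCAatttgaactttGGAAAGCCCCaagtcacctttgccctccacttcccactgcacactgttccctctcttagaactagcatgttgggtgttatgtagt
Ccl17: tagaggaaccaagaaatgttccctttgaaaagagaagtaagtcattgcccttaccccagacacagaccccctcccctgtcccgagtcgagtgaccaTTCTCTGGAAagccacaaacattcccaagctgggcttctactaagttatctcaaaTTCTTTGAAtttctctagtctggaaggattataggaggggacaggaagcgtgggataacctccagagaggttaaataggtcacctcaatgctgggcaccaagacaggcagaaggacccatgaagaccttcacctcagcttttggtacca

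The motifs searched, on both strands, were the NF-kB consensus, TTCNNNNGAA (a STAT6 type site) and TTCNNNGAA (a site of other STAT factors). Also searched were GAAANNGAAA (the core of interferon-stimulated response elements), TGANTCA (a loose AP-1 form with any middle base) and TGACGTCA (cAMP response element). In Ccl9 the NF-kB consensus matched at -35 to -26 from the start site and TGANTCA at -53 to -47. The middle base of the latter match was A, where the AP-1 consensus has C or G. In Ccl17 TTCNNNNGAA matched at -154 to -145 and TTCNNNGAA at -99 to -91, and none of these matches overlapped. No match was found in the windows of Ccl3, Ccl6 and Ccl22. Of 32851 promoters of the same length, 4.51% held the NF-kB consensus, 6.95% TTCNNNNGAA, 8.30% TTCNNNGAA, 3.44% GAAANNGAAA, 7.81% TGANTCA and 1.79% TGACGTCA. The promoters of Ccl6 and Ccl9 resembled each other, with 59 of 74 aligned positions identical (79.7%) from -59 to 14 in Ccl6 and from -18 to 48 in Ccl9. The other 9 pairs of the 5 sequences aligned over 10 to 20 positions only. A match of letters is a description of these windows and not a site.

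Genes with the most similar pattern were looked up for each of the 9 members measured on all 4 arrays, as the smallest root mean square (RMS) difference over the 4 arrays after each gene's mean was taken off, among 13368 genes. Nearest to Ccl4 were Ptgs2, an inducible prostaglandin synthase (RMS 0.086 log2 units), and Gbp5, a guanylate-binding protein (0.17). Next to Ccl5 lay 1700020N15Rik (0.057) and Cxcl2, a neutrophil chemokine (0.090). Ccl3 lay nearest to Csrnp1 (0.20) and Gm28068 (0.21). Tnfsf8, the CD30 ligand, was closest to Ccl2 but at a larger distance of 0.50, before Cish, a cytokine signalling suppressor (0.61). Cflar, an inhibitor of caspase-8 (0.071), and Acsl1, a fatty acyl-CoA ligase (0.10), were nearest to Ccl17. For Ccl22 these were Ttc39c (0.036) and the phospholipid scramblase gene Plscr1 (0.038), for Ccl9 4932438A13Rik (0.063) and Ppfibp1 (0.064), and for Ccl24 Hecw2 (0.024) and 6030407O03Rik (0.028). Ccl6 had Arfrp1 (0.0076) and 4930524C18Rik (0.011). Many of these distances are smaller than the error of a single spot (0.14 log2 units or more). The order of such neighbours cannot be read. Among the members, Ccl17 was the 19th nearest gene to Ccl3 (0.50) and Ccl5 the 14th nearest to Ccl4 (0.71).

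Other CC chemokines from a list of 11 genes were mostly dim. Of these, 5 were measured with LPS and LA against LPS, and 0 were at least 2-fold higher or lower (median -0.20). They were Ccl11 (-0.31), Ccl20 (-0.20), Ccl25 (-0.06), Ccl27a (-0.13) and Ccl28 (-0.65). The same 5 had 0 genes 2-fold apart with LPS against medium (median 0.47) and with LA against medium (median 0.08). Over all measured genes 11.5% were higher and 12.5% lower with LPS and LA against LPS, 8.14% and 7.50% with LPS against medium. With LA against medium these shares were 3.12% and 3.33%. A count of 0 among 5 genes does not set them apart from such shares. Ccl12, a monocyte chemoattractant that binds CCR2, was above background with LPS only, at least 5.44-fold lower with LPS and LA than with LPS and at least 5.03-fold higher with LPS than in medium. Ccl19, a ligand of CCR7, was above background with LPS and LA only and Ccl21a, another, with LA only, while Ccl1, Ccl8 and Ccl26 were so on no array.

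Receptors of CC chemokines went both ways, as did genes over the whole array. Over all measured genes 11.5% were higher and 12.5% lower with LPS and LA against LPS. The shares were 8.14% and 7.50% with LPS against medium and 3.12% and 3.33% with LA against medium. They also stand beside the counts of the lists in the paragraphs below. Of 14 genes 10 were measured with LPS and LA against LPS, with 2-fold or larger differences upward in 2, downward in 3 and neither in 5 (median -0.46). Ccr2, which binds Ccl2 and Ccl7, lay at 2.64, and Ccr1, which binds Ccl3, Ccl6 and Ccl9, at 1.65. Ccr6, the receptor of Ccl20, was at least 6.43-fold higher with LPS and LA than with LPS. Lower were Ccrl2 (-4.44), a receptor that binds chemerin and does not signal by itself, Ccr7 (-1.93), which leads dendritic cells to lymph nodes, and Ccr10 (-1.03). Ccr4, the receptor of Ccl17 and Ccl22, was above background on no array. LPS against medium gave 2 of 10 higher, 2 lower and 6 neither (median 0.63), namely Ccrl2 (3.6), Ccr7 (1.70), Ccr2 (-1.96) and Ccr1 (-1.09). Ccr6, not above background with LPS, was at least 3.07-fold lower with LPS than in medium. With LA against medium 1 of 12 was higher, 0 lower and 11 neither (median -0.01), with Ccr6 at 1.12. Ccr3, Ccr8, Ccr9, Ackr1 and Ackr2 were above background on at least 3 arrays and less than 2-fold apart in these 3 comparisons where measured, and Ackr4 was above background with LPS and LA only.

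NF-kB subunits and inhibitors carry and curb the main TLR4 signal. With LPS and LA against LPS, 13 of 18 genes were lower, 0 higher and 5 neither (median -2.40). The shares over all genes were 12.5% lower and 11.5% higher. Tnfaip3, a ubiquitin-editing brake, was lowest (-5.80), followed by the nuclear regulator Nfkbiz (-4.42), and Ikbkg (0.63) and Ikbkb (0.05) were highest. With LPS against medium 13 of 18 were higher, 0 lower and 5 neither (median 1.80), with Nfkbiz (4.34) and Tnfaip3 (3.65) highest and Ikbkg (-0.72) and Chuk (0.13) lowest. With LA against medium 0 were higher, 2 lower and 16 neither (median -0.48). In the interferon and IRF list, 7 of 10 measured genes were lower with LPS and LA than with LPS, 0 higher and 3 neither (median -1.44). Irf7 (-4.33) and Irf1 (-3.13) were lowest and Irf3 (0.31) and Ifnar1 (-0.27) highest, while Ifnb1, which encodes interferon beta, was at least 250.1-fold lower. For LPS against medium 5 of 10 measured genes were higher, 0 lower and 5 neither (median 0.89). Of the measured genes Irf1 (3.06) and Irf7 (2.71) were highest and Irf3 (-0.13) and Ifnar1 (0.41) lowest, while Ifnb1 was at least 231-fold higher. With LA against medium 0 were higher, 2 lower and 8 neither (median -0.34).

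The IL-4 and STAT6 list was chosen because Ccl17, Ccl22 and Ccl24 are known targets of IL-4. Beside its counts stand the shares over all genes, 11.5% higher and 12.5% lower with LPS and LA against LPS. Of its 12 measured genes 1 was higher with LPS and LA than with LPS, 3 lower and 8 neither (median 0.07), from Socs1 (-3.14) and Batf3 (-1.46) to Klf4 (0.86) and Cd209a (1.07). With LPS against medium 2 were higher, 1 lower and 9 neither (median 0.03), with Socs1 (4.75) and Cish (2.64) highest and Cd209a (-1.02) and Clec10a (-0.40) lowest, and with LA against medium 2 were higher, 0 lower and 10 neither (median 0.22). Of the 14 genes of this list 13 were above background on at least 1 array. Chil3 was bright on all 4 arrays, at an intensity of 26783 to 29403. Retnla, a marker of the IL-4 response in macrophages, was above background on no array. The 7 genes of the mRNA decay list act on the life of transcripts, and not all of them shorten it. Of these, 1 was higher with LPS and LA than with LPS, 2 lower and 4 neither (median -0.49). Zc3h12a, the endonuclease Regnase-1 (-2.44), and Zfp36, the AU-rich element binding protein tristetraprolin (-2.0), were lowest, with Zfp36l2 (1.78) and Zfp36l1 (0.90) highest. With LPS against medium 2 were higher, 1 lower and 4 neither (median 0.04), with Zc3h12a (2.59) and Zfp36 (1.85) against Zfp36l2 (-1.32) and Zfp36l1 (-0.64), and with LA against medium 7 of 7 were neither (median 0.14).

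Immediate early and AP-1 factors are switched on soon after many stimuli. The shares over all genes with LPS and LA against LPS were 11.5% higher and 12.5% lower. Among these factors, 5 of 12 were higher in that comparison, 2 lower and 5 neither (median 0.53). Egr1 (4.22) and Fos (3.77) were highest and Atf3 (-3.05) and Cebpb (-1.06) lowest. In LPS against medium 0 were higher, 2 lower and 10 neither (median -0.14), with Atf3 (0.88) and Cebpb (0.64) highest and Egr2 (-1.62) and Fosl2 (-1.31) lowest. With LA against medium 2 were higher, 1 lower and 9 neither (median 0.21), with Egr1 at 3.98, Fos at 3.1 and Atf3 at -1.98.

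**Figure D5:**
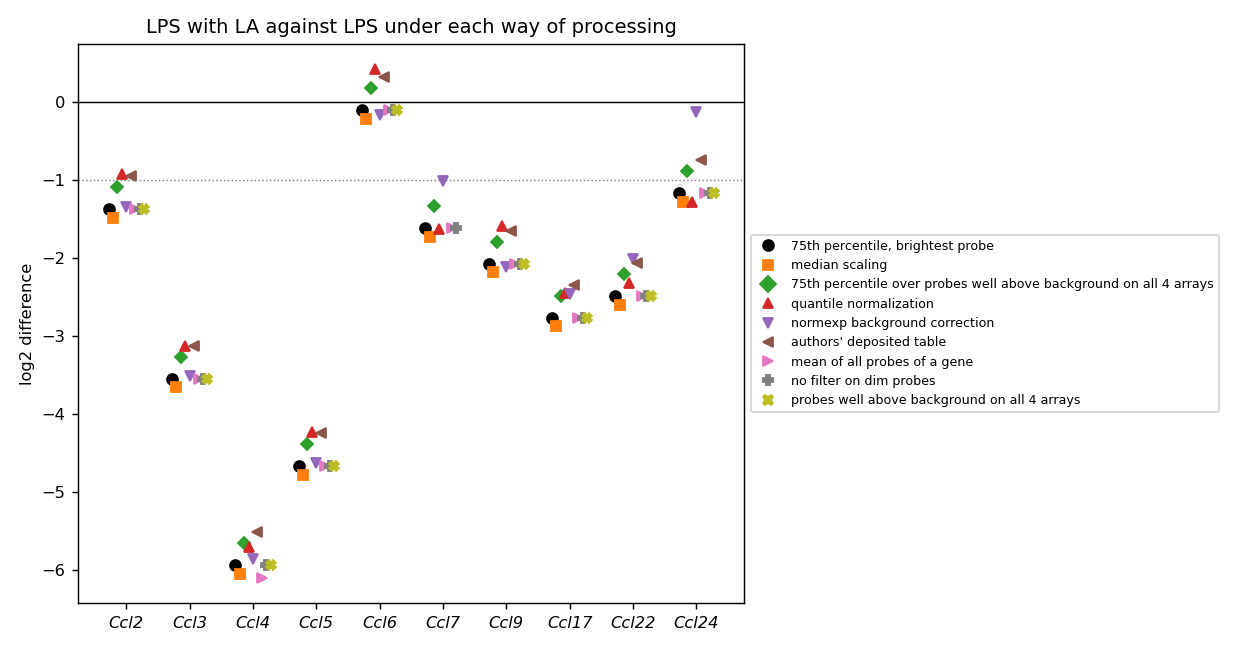
Log2 difference of LPS with LA against LPS for each chemokine under 9 ways of processing, with a dotted line at -1. Points of Ccl3, Ccl4, Ccl5, Ccl9, Ccl17 and Ccl22 lie below the line throughout, while those of Ccl2 and Ccl24 cross it and Ccl6 lies on either side of 0.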

How the data were processed

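Total RNA of 4 cultures was hybridised to single-colour Agilent arrays, 1 per group. The authors deposited the scanner files with processed intensities, background-subtracted per the file headers by Feature Extraction 12.0.3.1, and by version 11.5.1.1 per the submitters' processing notes. A second deposited file of the authors is a table of 31529 spots per array, whose intensity is the scanner's processed intensity times 1 factor per array (9.30 for LPS with LA, 5.82 for LPS, 8.38 for LA and 6.67 for medium). It is linear and not centred, with medians of 1189, 873, 1164 and 1038 in the same order, and the origin of the factors is not given in the sources used here.

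Here the processed intensity of 59305 spots (56605 probes) was divided by the 75th percentile of its array and put on a log2 scale. Control spots and spots with an outlier flag were left out, spots of a probe were averaged, and a gene was taken as its brightest probe. Through its transcript a RefSeq gene symbol was found for 33767 probes, several for 0 and none for 22838. A probe above background on 1 array of a comparison has only a bound, for which the dim side was the dim probe's own level or, where higher, the array's lowest level among detected probes. The computation of differences was tested on simulated data, which says nothing of the spread between cultures. All 10 members are named. For the NF-kB, interferon, IL-4, mRNA decay and immediate early lists the genes named are the 2 highest and 2 lowest for LPS with LA against LPS and for LPS against medium, for the cell type markers those above background on no array, and for likeness the 2 nearest genes, while the other CC chemokines and the receptors are named throughout, apart from 1 receptor that is counted but not reported here by name, and Ifnb1, Retnla and the immediate early genes given for LA against medium were named after their values were seen. Chil3 was likewise named after its values were seen. The members and lists were chosen with earlier results of these data known. Alternatives were median scaling, a percentile over probes detected on every array, quantile normalization, normexp (offset 50, on the median spot signal in place of the mean), the authors' table, the mean of probes, and other filters on dim probes. Software was Python 3.11.15, pandas 2.3.3, numpy 2.4.6, Biopython 1.88 (promoter alignments), R 4.3.3 and limma 3.58.1 (normexp and quantile normalization only). With 1 array per group no test was made, and precision is limited by this number.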

Additional observations from a re-analysis of the deposited data

Results flagged for a closer look

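For 3 chemokines the LA difference ran in opposite directions without and with LPS, by more than the software's spot error each time. With 1 array per group this contrast was not tested. The share of all genes that meet the same rule is not given here. Few genes reached 2-fold between the array with both agents and the LA array. Where these arrays are alike, a gene with an LA level between medium and LPS must show opposite signs. All 3 chemokines had that order, so the contrast is not a separate result and does not set them apart from other genes. Ccl2 lay at 2.88 log2 units with LA against medium and at -1.38 with LPS and LA against LPS. Ccl3 lay at 0.85 and at -3.55 in the same comparisons, the first of which is under 2-fold. Ccl7 had a lower bound of 2.35 log2 units with LA against medium, since medium was not above background, and lay at -1.62 with LPS and LA against LPS.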

How the results depend on the processing

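Of 96 recomputed counts of members, 90 stayed within 1.5 times the reported count and 0 reversed. The other 6 gave 2 members higher against the reported 1. For LPS with LA against medium the count was 2 with the percentile over probes detected on every array, with quantile normalization and in the authors' table (Ccl3 at 1.01, 1.01 and 1.1), and 2 with no filter on dim probes (Ccl7 at 4.50). For LA against medium it was 2 in the authors' table (Ccl3 at 1.0) and 2 with no filter (Ccl7 at 4.34). Of 447 recomputed values of single members, 68 moved by more than the spot error or from a bound to a value, and 0 called values changed sign. The median of all genes for LPS with LA against LPS moved by -0.11 with median scaling, 0.28 with the percentile over probes detected on every array, 0.43 in the authors' table and -0.13 with no filter. Ccl2 lay at -1.39 relative to that median in the authors' table, and Ccl24 at -1.18. Members at least 2-fold lower with LPS and LA than with LPS numbered 6 to 9, with 6 in the authors' table, which lacks the Ccl7 probe and puts Ccl2 and Ccl24 under 2-fold. Low signal limits Ccl24 and Ccl7. No paired analysis was possible because each group is 1 array.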

Other observations

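Genes beside the members were looked at after the values of the members had been seen. Ciapin1, next to Ccl17, lay at -1.88 log2 units with LPS and LA against LPS and at 1.53 with LPS against medium. Cx3cl1, between Ccl22 and Ccl17, lay at -0.95 and 0.81 in these comparisons. Heatr9, beside Ccl5, was above background with LPS only, at least 9.69-fold lower with LPS and LA than with LPS and at least 8.96-fold higher with LPS than in medium. Wfdc17, beside Ccl4, lay at -1.08 and 0.24, and 1700071K01Rik, beside Ccl2, at -0.34 and -0.07. Pllp, beside Ccl22, was above background on no array, and Rhbdd2, beside Ccl24, had no probe value.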
